A study of Rattus norvegicus with 12 samples.

Results

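The response of the rat left ventricle to tying off the left anterior descending coronary artery (LAD) was compared with the response to thoracotomy without ligation, 1 day after surgery. The comparison took the 4 rats labelled MI (numbers 1, 3, 4 and 5) and the 4 rats labelled Sham (numbers 1, 2, 3 and 5) out of 12 rats in the series, and left out the 4 rats that received the photonic patch. All were male SD rats. MI rats were anaesthetised with chloral hydrate and ventilated, the heart was reached by a left thoracotomy and opening of the pericardium, and the LAD was tied with a silk suture near its origin. Sham rats had the thoracotomy without ligation, and whether their pericardium was opened is not given in the sources used here. The tissue of each rat was 1 total RNA sample of the left ventricle, described in the labels as the MI region of the heart for every group alike. How the matching region was found in Sham hearts and the infarct size of the sequenced rats are not given in the sources used here. Libraries were made from total RNA with an NEBNext Ultra kit, and their reads were deposited as raw counts per gene, in which 13371 of the 22250 protein-coding genes had enough counts to be tested.

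Tying the LAD stops blood flow to the front and side wall of the left ventricle. As background, heart muscle there depends on a steady supply of oxygen to burn fatty acids, and within hours of permanent ligation the cells in the centre of the zone die. Neutrophils and then monocytes enter the dying wall, clear it and release matrix enzymes, while fibroblasts and vessel cells at its edge start the repair that later becomes a scar. A whole-tissue sample at this early time therefore mixes surviving and dying muscle with newly arrived leukocytes.

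Ligation was accompanied by a change in most of the genes tested. Of the 13371 protein-coding genes, 4702 were called higher in MI (35.2%) and 3997 lower (29.9%) by edgeR's quasi-likelihood test at an adjusted p of 0.05, which is 65.1% in all. At least 2-fold changes were reached by 2445 genes that rose and 2448 that fell, and at least 8-fold changes by 466 and 372. The values of the 4 MI and the 4 Sham rats did not overlap in 8157 genes (61.0%). The median log2 fold change of all protein-coding genes tested was 0.07, and every list below is to be read against these shares. Expression is given in CPM, reads of the gene per 1000000 reads of the library after TMM scaling, which sets the middle of the genes equal between rats, and the values of a gene are listed in the order of the rat numbers.

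**Figure D1:**
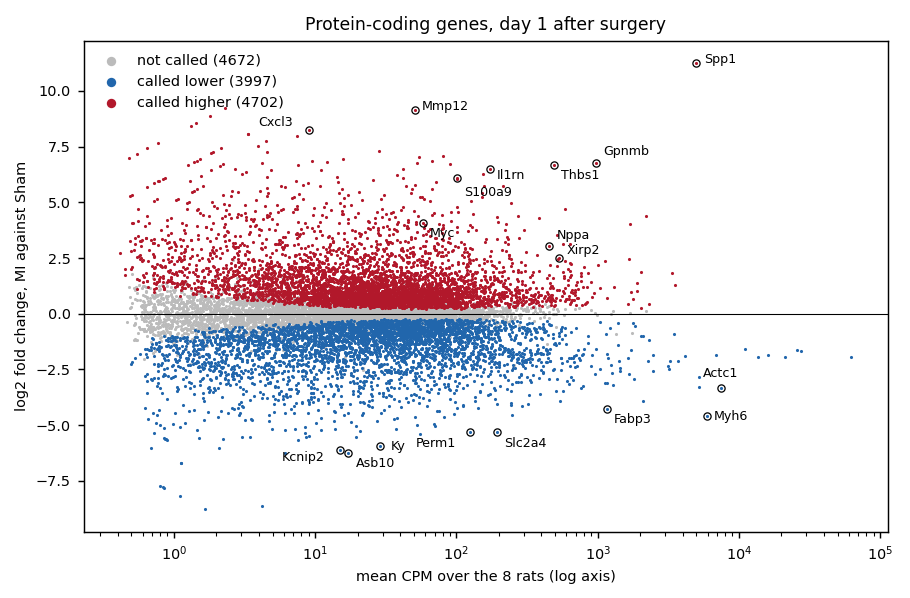
Each point is a protein-coding gene, with its mean CPM over the 8 rats on a log axis and its log2 fold change of MI against Sham on the vertical axis. Red points (4702) were called higher, blue points (3997) lower and grey points were not called. Spp1 stands at the top with a log2 fold change of 11.25, and genes of the contracting muscle such as Myh6 and Slc2a4 lie far below 0 at high CPM.

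Library depth was alike, with 14898054 to 16923619 counts in MI and 16806502 to 17136958 in Sham rats. Genes of the mitochondrial genome took 8.52 to 11.5% of the counts in MI and 22.8 to 28.9% in Sham rats, without overlap (exact two-sided permutation test over 70 arrangements, p = 0.0286, the smallest it can give). TMM factors were 1.12 to 1.20 in MI and 0.83 to 0.90 in Sham. Scaling by total counts alone moved the median log2 fold change of all genes from 0.07 to 0.51 and turned the split of calls from 54.1% to 73.2% higher. In tissue of mixed cells, fewer cells of a type and less RNA per cell cannot be told apart, which holds for every list named for a cell type.

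**Figure D2:**
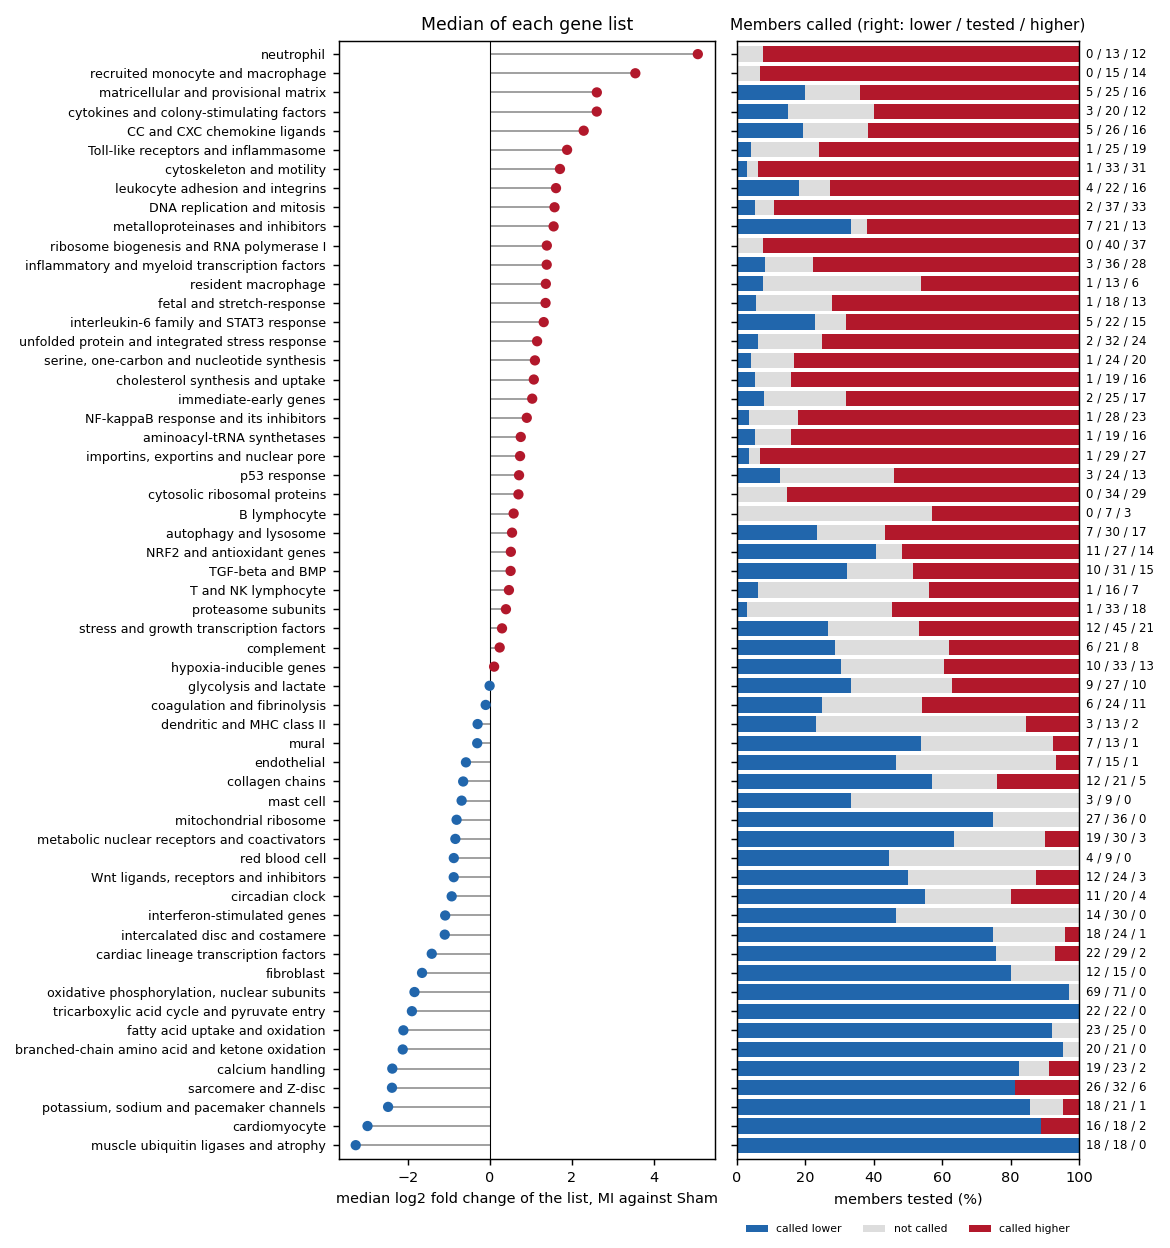
Left, the median log2 fold change (MI against Sham) of the tested members of 58 gene lists. Right, the percent of tested members called lower (blue), not called (grey) and called higher (red), with the 3 counts printed as lower, tested and higher. Neutrophil genes stand highest at a median of 5.08 and muscle ubiquitin ligases lowest at -3.28.

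Genes of the heart muscle cell fell far and together. Of 18 cardiomyocyte markers, 16 were lower and 2 higher, with a median log2 fold change of -2.99. Their summed expression was 61710 to 66580 CPM in Sham and 5453 to 11630 CPM in MI rats, so the labelled tissue was heart muscle in all 8 rats, and the lowest Sham rat was far above the highest MI rat. Myh6, the fast alpha myosin heavy chain of the adult rat ventricle, was at 11731, 12620, 10540 and 10711 CPM in Sham and at 283, 558, 422 and 634 CPM in MI. It fell by 4.59 ± 0.26 (SE) on the log2 scale, with an adjusted p of 5.73e-07. Actc1, cardiac actin, was at 12932, 13800, 14660 and 13017 CPM in Sham and at 976, 1445, 1730 and 1225 CPM in MI (log2 fold change -3.34 ± 0.19, adjusted p = 5.68e-07). Both genes separated the groups without overlap, and MI 1 had the lowest value of each. Myh7, the slow beta chain that rises in stressed ventricles, went the other way, from 414, 367, 441 and 427 CPM to 358, 1184, 512 and 773 CPM. Its groups overlapped, and its log2 fold change of 0.78 ± 0.31 passed only narrowly (adjusted p = 0.0472). That call was lost in 12 of the alternative settings, with adjusted p values up to 0.235. Without MI 3 the log2 fold change of Myh7 was 0.35 (adjusted p = 0.2). Reads of Myh6 and Myh7, and of the actin genes, can be hard to assign because these copies are much alike.

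In the sarcomere and Z-disc list, 26 of 32 genes fell and 6 rose, with a median of -2.40. The 6 that rose were Xirp2, Flnc, Csrp3, Ankrd1, Myh7 and Xirp1, most of which encode proteins that bind at the Z-disc or intercalated disc and are known to respond to load or damage. Xirp2, an actin-binding repeat protein, was at 142, 140, 199 and 155 CPM in Sham and at 897, 732, 793 and 1206 CPM in MI (log2 fold change 2.51 ± 0.19, adjusted p = 2.41e-06). Csrp3, the muscle LIM protein, rose from 393 to 455 CPM up to 583 to 1130 CPM (log2 fold change 1.06 ± 0.19), and Ankrd1, the cardiac ankyrin repeat protein, from 1047 to 1645 CPM up to 2168 to 3022 CPM (1.03 ± 0.18). All 3 are mainly transcripts of muscle, and each was higher in all 4 MI rats than in every Sham rat while most sarcomere transcripts fell. Upstream of the Xirp2 start in the RefSeq annotation of build GRCr8 the script found an A/T-rich element spelled CTANNNNTAG, the core bound by MEF2 factors, and a TGANTCA element, the core bound by AP-1. They stand in capitals in the 250 bases before the start, 74 and 107 bases upstream of it, and are shown because Xirp2 is a muscle gene that rose.

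Xirp2, chr3:72533936-72534185, plus strand: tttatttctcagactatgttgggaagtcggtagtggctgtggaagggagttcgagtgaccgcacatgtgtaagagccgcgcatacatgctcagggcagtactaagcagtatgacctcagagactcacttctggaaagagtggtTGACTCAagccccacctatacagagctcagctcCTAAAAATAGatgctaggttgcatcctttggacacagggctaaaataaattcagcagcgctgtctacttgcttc

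The first core occurred in 4 of 25 sarcomere promoters for which a sequence was given and in 2.95% of all 10037 promoters, and the second in 5.07% of all promoters. Each promoter here is the stretch of 250 bases before to 50 bases after the start, searched on both strands, and a match is only a run of letters.

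Genes for moving calcium and for the action potential fell with the sarcomere. In the calcium-handling list 19 of 23 genes fell and 2 rose (median -2.39). Atp2a2, the pump that refills the sarcoplasmic reticulum, was at 9995, 9403, 9396 and 9224 CPM in Sham and at 671, 1280, 874 and 1043 CPM in MI (log2 fold change -3.30 ± 0.20, adjusted p = 7.65e-07). Pln, phospholamban, the brake on that pump, fell from 3406 to 4657 CPM down to 87.7 to 454 CPM (-3.92 ± 0.46), and Ryr2, the calcium release channel, from 476 to 732 CPM down to 32.6 to 129 CPM (-3.06 ± 0.42). Sri, which encodes the calcium-binding protein sorcin, was 1 of the 2 that rose.

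Of 21 potassium, sodium and pacemaker channel genes, 18 fell and 1 rose (median -2.49). Kcnip2, the auxiliary subunit that sets the transient outward current, was among the 15 lowest genes by the naming rule. It was at 28.5, 27.9, 34.3 and 26.6 CPM in Sham and at 0.297, 0.339, 0.402 and 0.626 CPM in MI (log2 fold change -6.12 ± 0.23, adjusted p = 2.06e-07). The groups were far apart, and the values within each group were close. Hcn2, a pacemaker channel, fell by 4.23 ± 0.25 on the log2 scale, and Scn4b, a sodium channel beta subunit, fell by 4.35 ± 0.52. Scn3b, another beta subunit, was the 1 that rose (2.26 to 4.53 CPM in Sham, 5 to 13.3 CPM in MI, log2 fold change 1.37 ± 0.34).

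At the cell border, 18 of 24 intercalated disc and costamere genes fell and 1 rose (median -1.11). Dsp, desmoplakin of the desmosome, fell from 687 to 931 CPM down to 59.8 to 154 CPM (-2.95 ± 0.28). Gja1, the connexin 43 gap junction gene, fell less, from 268 to 419 CPM down to 135 to 230 CPM (-0.96 ± 0.22, adjusted p = 0.00353), a call that was lost when scaled by total counts alone. Itgb1, an integrin chain found on most cells, rose (0.76 ± 0.10).

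Muscle ubiquitin ligases and related genes formed the list with the lowest median of all, -3.28, and all 18 of its genes fell. Asb10, a substrate adaptor of a ubiquitin ligase, was at 36.4, 29.2, 29.2 and 40.7 CPM in Sham and at 0.0495, 1.24, 0.172 and 0.341 CPM in MI (log2 fold change -6.23 ± 0.54). Ky, a muscle Z-disc protease-like gene, fell by 5.96 ± 0.52. Both genes had their highest MI value in MI 3, the rat that also kept the highest cardiomyocyte score. Trim50 (log2 fold change -5.52 ± 0.64) and Atp2b2, a calcium pump of the cell membrane (-6.25 ± 0.77), were also among the 15 lowest genes by the naming rule. Tecrl, an endoplasmic reticulum enzyme of heart cells linked to inherited arrhythmia, belonged there too, at 101 to 126 CPM in Sham and 0.94 to 5.64 CPM in MI (-5.38 ± 0.44). Atp2b2 was at 5.2, 5.61, 24.1 and 13.5 CPM in Sham and at 0.099, 0.395, 0.115 and 0 CPM in MI. Its fold change therefore rests on very few MI reads.

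The fetal and stretch-response list rose against this background, with 13 of 18 genes higher and 1 lower (median 1.36). Nppa, which encodes atrial natriuretic peptide, was at 110, 87.1, 108 and 89.2 CPM in Sham and at 367, 953, 1094 and 837 CPM in MI (log2 fold change 3.04 ± 0.30, adjusted p = 1.32e-05). Nppb, the brain natriuretic peptide gene, was at 67 to 104 CPM in Sham and 103 to 381 CPM in MI (1.51 ± 0.33), with MI 1 inside the Sham range. Ccn2, the connective tissue growth factor gene and a target of stretch signalling, rose more evenly, from 64.6, 30.7, 42.7 and 55.9 CPM to 463, 525, 543 and 500 CPM (3.39 ± 0.22). Acta1, the skeletal actin counted in this list, was the 1 that fell (-0.998 ± 0.19).

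Factors that fix the cardiac lineage fell too, 22 of 29 lower and 2 higher (median -1.42). Prox1 fell by 3.13 ± 0.35 on the log2 scale. Nkx2-5, a homeobox factor of the heart, fell from 109 to 153 CPM down to 32.2 to 50.6 CPM (-1.605 ± 0.17), and Gata4 from 101 to 111 CPM down to 47.4 to 67.7 CPM (-0.87 ± 0.12). The groups did not overlap for any of these factors. Hopx, an atypical homeodomain gene, was 1 of the 2 that rose (33.8 to 54.2 CPM in Sham, 149 to 196 CPM in MI, log2 fold change 1.91 ± 0.16), beside Ankrd1. Corin, the heart protease that activates natriuretic peptide, fell by 3.68 ± 0.45, and Adrb1, the main beta adrenergic receptor of the heart, by 2.15 ± 0.34.

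The oxidative metabolism of the muscle fell as a block. All 22 genes of the tricarboxylic acid cycle and pyruvate entry fell (median -1.91), as did 69 of 71 nuclear genes of oxidative phosphorylation (-1.85), 23 of 25 genes of fatty acid uptake and oxidation (-2.12) and 20 of 21 genes of branched-chain amino acid and ketone oxidation (-2.13), with none called higher in any of them. Fabp3, the cytosolic fatty acid carrier of heart muscle, was at 2543, 2378, 2050 and 1840 CPM in Sham and at 38.4, 150, 156 and 116 CPM in MI (log2 fold change -4.26 ± 0.40, adjusted p = 9.69e-06). Cpt1b, the muscle carnitine transferase that admits fatty acids to mitochondria, fell by 3.14 ± 0.29, and Acsl1, which activates them, by 3.92 ± 0.22. The groups did not overlap for any of these genes, and MI 1 had the lowest value of each.

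Idh2, an isocitrate dehydrogenase of mitochondria, was at 2250, 2061, 2227 and 2257 CPM in Sham and 258, 434, 337 and 362 CPM in MI (-2.66 ± 0.16). Atp5f1b, the catalytic beta subunit of ATP synthase, fell by 1.88 ± 0.13, Cox8b, the muscle form of a cytochrome oxidase subunit, by 3.05 ± 0.37, and Oxct1, the first enzyme of ketone use, fell by 3.12 ± 0.22. Lpl, the lipase that frees fatty acids from lipoproteins, fell from 2282 to 2562 CPM down to 377 to 589 CPM (-2.41 ± 0.15). Genes of the mitochondrial ribosome fell less, 27 of 36 with none higher (median -0.82).

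Regulators known to drive these pathways fell too. Among 30 metabolic nuclear receptors and coactivators 19 fell and 3 rose (median -0.85). Perm1, a muscle coactivator of mitochondrial genes, was at 239, 242, 267 and 226 CPM in Sham and at 2.08, 11.1, 5.33 and 5.92 CPM in MI (log2 fold change -5.32 ± 0.41). Ppara, the fatty acid receptor, fell by 3.14 ± 0.30, its partner Rxrg by 4.66 ± 0.33, Ppargc1a, the coactivator of mitochondrial biogenesis, by 2.80 ± 0.34 and Klf15 by 3.55 ± 0.29. Esrra, the estrogen-related receptor that binds the same promoters, fell by 0.81 ± 0.14. Pink1, the kinase that marks damaged mitochondria, was at 867 to 1066 CPM in Sham and 118 to 208 CPM in MI (-2.54 ± 0.17).

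Glycolysis did not move as a list. Of 27 genes of glycolysis and lactate transport 10 rose and 9 fell, with a median of -0.01 whose sign changed under total-count scaling and without MI 1, MI 5 or Sham 5. Slc2a4, the insulin-driven glucose transporter GLUT4, was at 393, 373, 369 and 373 CPM in Sham and at 4.55, 13.6, 9.29 and 10.5 CPM in MI (log2 fold change -5.32 ± 0.30, adjusted p = 5.68e-07). Slc2a1, the GLUT1 transporter of most cells, was at 25.9, 16.8, 20.5 and 24.8 CPM in Sham and at 104, 185, 179 and 65.6 CPM in MI (2.60 ± 0.32). On the scale of CPM per kilobase, which allows levels of different genes to be set side by side, the muscle form made up 94.6% of the pair in Sham and 6.85% in MI.

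The share of the muscle form was lower in MI at each of 11 steps for which a muscle and a general isoform were paired, a set put together after these values had been seen. All 11 isoforms taken as the muscle form were called lower, and 12 of the 14 others were called higher. Ldhb, the heart form, was taken as the muscle form of its pair. Among the others, the edgeR call of the adenine nucleotide carrier Slc25a5 was lost with the replicate block (adjusted p = 0.0566). It was also lost when tested against a 1.5-fold change (adjusted p = 0.862). Pfkm, the muscle phosphofructokinase, went from 82.4 to 14.5% of its family per kilobase, Pgam2, the muscle phosphoglycerate mutase, from 80.9 to 9.93%, and Eno3, the muscle enolase, from 39.2 to 3.29%. Ldhb, the heart form of lactate dehydrogenase, went from 73.7 to 28.1%. Ldhb fell (log2 fold change -2.70 ± 0.21), and Ldha, the lactate-producing form, was at 1140 to 1323 CPM in Sham and 1044 to 1694 CPM in MI and was not called (0.14 ± 0.17, adjusted p = 0.479). Outside metabolism, cardiac Actc1 went from 87.5 to 15.5% of the actins named, and Eef1a2, the elongation factor of muscle and nerve, from 27.0 to 1.81% of its pair with Eef1a1. Slc16a3, the carrier that exports lactate, rose from 2.95 to 4.6 CPM up to 67.6 to 185 CPM (5.04 ± 0.34), and Hk3, the leukocyte hexokinase, from 0.653 to 1.46 CPM up to 78.3 to 125 CPM (6.76 ± 0.25).

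**Figure D3:**
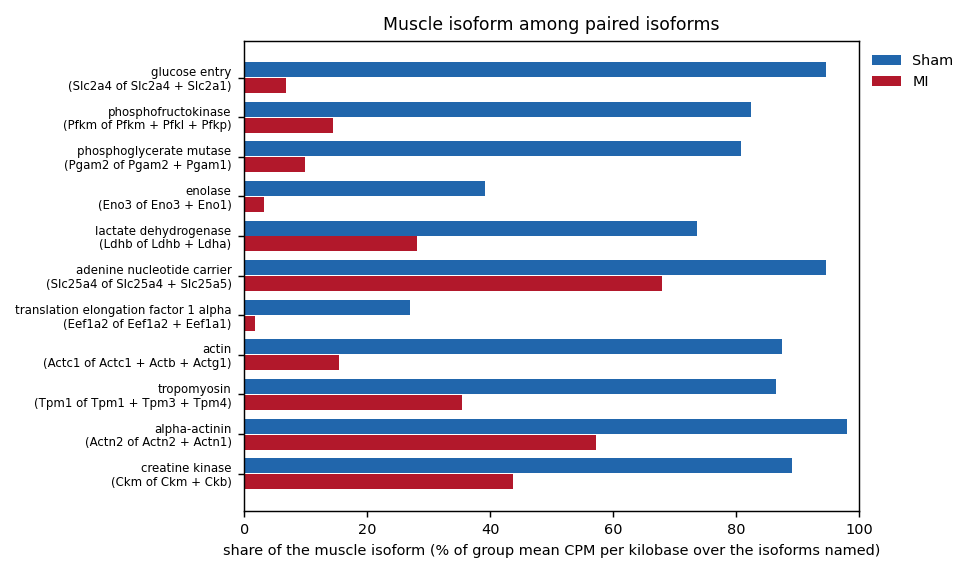
Each pair of bars gives the share that the muscle isoform takes of the isoforms named, in percent of the group mean CPM per kilobase, for Sham (blue) and MI (red), with no error bars since group means were used. In all 11 steps the MI bar is the shorter, for example 94.6 against 6.85% for glucose entry and 94.6 against 68.0% for the adenine nucleotide carrier.

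Neutrophil and monocyte genes were higher in the ligated ventricle. Of 19 genes of the neutrophil list 13 were tested, of which 12 were higher and none lower (median 5.08). With at least 10 counts required in every rat, 3 were called higher, since a gene that passes the filter on low counts through MI rats alone has to differ. Of 15 genes of recruited monocytes and macrophages 14 were higher and none lower (median 3.55). S100a9, a calcium-binding protein that fills the neutrophil, was at 2.19, 2.68, 4.02 and 2.86 CPM in Sham and at 149, 129, 308 and 204 CPM in MI (log2 fold change 6.07 ± 0.34, adjusted p = 5.68e-07). Csf3r, the receptor for granulocyte colony-stimulating factor, rose from 1.37 to 3.07 CPM up to 121 to 165 CPM (5.90 ± 0.24), and Il1r2, a decoy receptor for interleukin-1, from 0.0718 to 0.522 CPM up to 28.7 to 72.5 CPM (7.32 ± 0.43). Summed over the neutrophil list, Sham rats were at 21.96 to 36.8 CPM and MI rats at 566.5 to 881.7 CPM. Lcn2, usually rich in neutrophil granules, was the 1 gene of the list that was not called.

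Gpnmb, a membrane glycoprotein of lipid-laden and phagocytic macrophages, was at 14.5, 21.7, 14.8 and 19.7 CPM in Sham and at 2338, 1462, 1884 and 2092 CPM in MI (6.78 ± 0.23, adjusted p = 2.06e-07). Adam8, a leukocyte membrane protease, rose from 0.547 to 2.16 CPM up to 141 to 204 CPM (7.08 ± 0.33). The groups lay far apart for both genes, with each MI rat well above the highest Sham rat.

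Of 13 resident macrophage genes 6 rose and 1 fell (median 1.36, or 0.497 without MI 1), among them Folr2, a folate receptor, at 14.1 to 21.6 CPM in Sham and 62 to 113 CPM in MI (2.41 ± 0.22). Gas6, a bridging ligand for the uptake of dead cells, fell from 528 to 556 CPM down to 111 to 137 CPM (-2.16 ± 0.10). Of 16 T and NK lymphocyte genes 7 rose and 1 fell (median 0.46, or 0.867 without Sham 1, 0.695 without Sham 2 and 0.307 without Sham 3). With at least 10 counts required in every rat, 4 of them rose and 1 fell (median 0.208). Cd8a stood out among them at 2.33, 2.81, 1.44 and 4.32 CPM in Sham and 212, 67.7, 148 and 99.7 CPM in MI (5.59 ± 0.44). In the rat Cd8a is also carried by NK cells and some macrophages, and the cytotoxic genes Gzmb, Prf1, Nkg7 and Klrd1 of the list were not called. Of 9 B lymphocyte genes 7 were tested, of which 3 rose and none fell (median 0.58, or 0.248 without MI 3, 0.357 without Sham 1 and 0.889 without Sham 3), and 1 rose with at least 10 counts required in every rat.

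Of 13 genes in the list dendritic and MHC class II, which includes genes that present antigen to T cells, 2 rose and 3 fell. Their median of -0.30 was -0.554 without MI 3, -0.487 without Sham 2, -0.07 without Sham 3 and -0.114 without Sham 5, where 4 rose and 2 fell. Scaling by total counts alone gave 3 higher and 1 lower, with a median of 0.157. Cd74, the chain that escorts MHC class II molecules, was at 628, 726, 569 and 935 CPM in Sham and at 341, 444, 373 and 255 CPM in MI (-1.02 ± 0.20), without overlap. Of 9 mast cell genes 3 fell and none rose (median -0.69), which became 2 lower and 1 higher without Sham 5 (median -0.389), and 1 lower and 2 higher when scaled by total counts alone. Gata2, a transcription factor of mast cells that endothelial cells also use, was at 34 to 41.3 CPM in Sham and 13.1 to 19.5 CPM in MI (-1.29 ± 0.14). Of 9 red blood cell genes 4 fell and none rose (median -0.88), which became 7 without MI 4 and 2 when scaled by total counts alone.

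**Figure D4:**
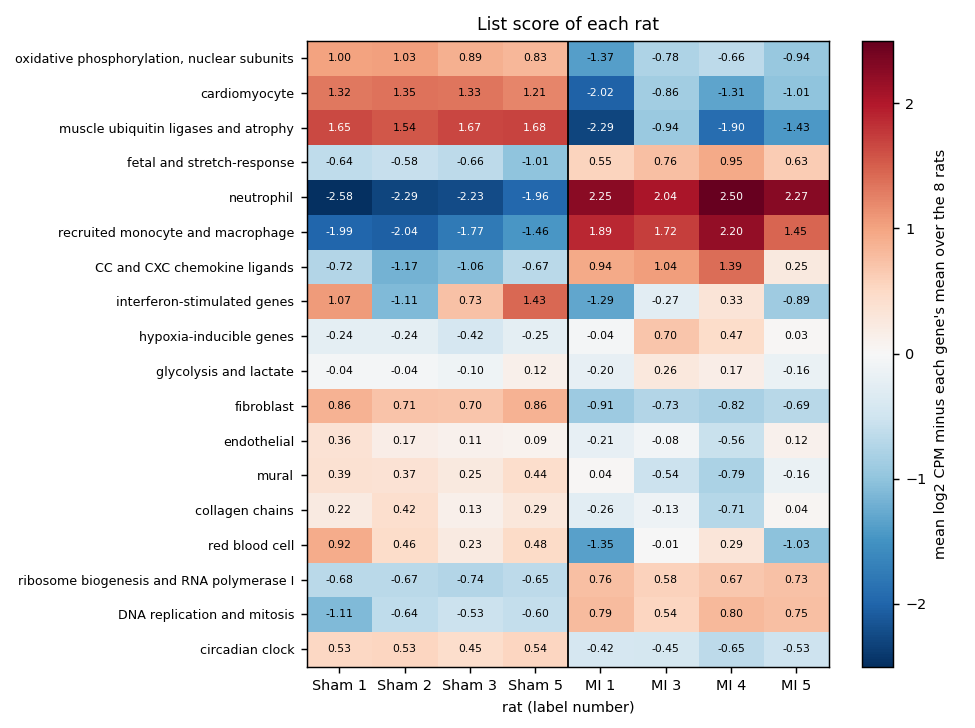
Each cell gives the score of a gene list (rows) in a rat (columns), its log2 CPM averaged over genes after each gene was centred on its mean of the 8 rats, in red where above and in blue where below that mean. Cardiomyocyte scores are 1.21 to 1.35 in Sham and -2.02 to -0.86 in MI, and the interferon row shows Sham 2 at -1.11 beside 0.73 to 1.43 in the other Sham rats.

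The gene with the largest change of all by the naming rule was Spp1, which encodes osteopontin, a secreted phosphoprotein of macrophages. It was at 3.49, 5.87, 3.45 and 3.56 CPM in Sham and at 12207, 8342, 14528 and 4975 CPM in MI (log2 fold change 11.25 ± 0.47, adjusted p = 2.38e-07). By CPM per kilobase it went from rank 9902 to rank 6 of the protein-coding genes, and only genes of the mitochondrial genome stood above it. Mmp12, the macrophage elastase, rose from 0.0684 to 0.287 CPM up to 79.7 to 160 CPM (9.14 ± 0.40). Cxcl3 and Serpinb10 had 3 counts each in all 4 Sham rats together, against 1338 and 1095 in MI, which are ratios of 355.8 (95% counting interval 121.5 to 1728) and 291.2 (99.4 to 1414). Other genes of the 15 highest were Mcemp1, a mast cell and monocyte membrane protein (7.04 ± 0.31), Adamts4, an aggrecan protease (6.84 ± 0.41), Lilrb4, an inhibitory leukocyte receptor (6.74 ± 0.41), Clec4e, a receptor for dead cells (6.80 ± 0.55), Oscar, a collagen receptor of myeloid cells (6.85 ± 0.75), and Thbs1, thrombospondin (6.68 ± 0.37). In Sham rats Oscar was at 0.547, 0, 0.0718 and 0 CPM and Clec4e at 0, 0.131, 0.144 and 0.558 CPM. Their fold changes therefore rest on very few Sham reads.

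**Figure D5:**
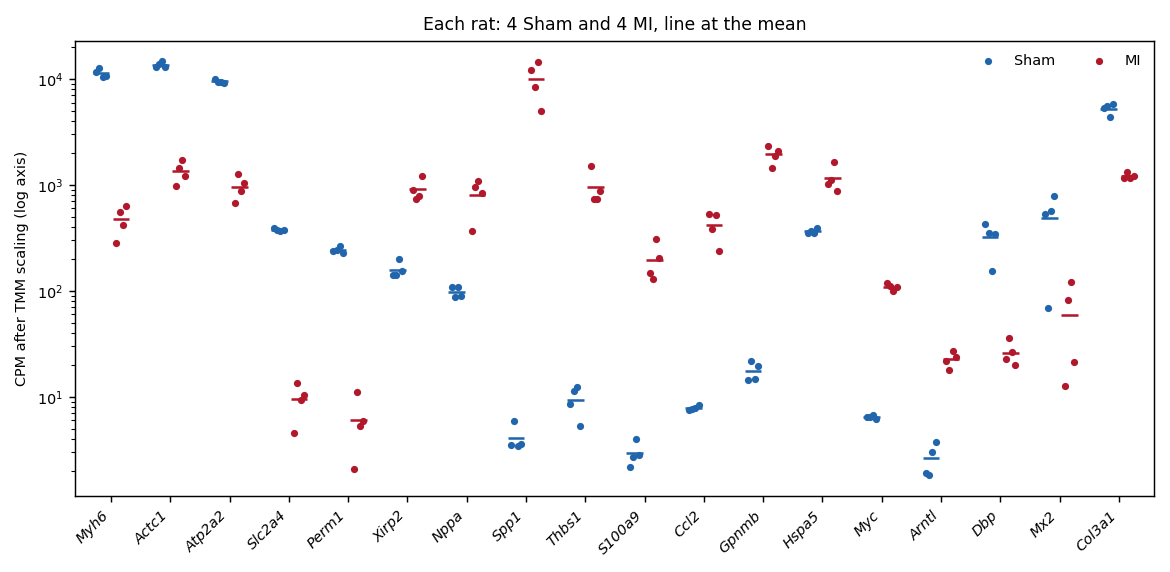
Points are single rats, Sham in blue and MI in red, on a log axis of CPM after TMM scaling, with a line at the mean of each group of 4. Apart from Mx2, where Sham 2 (68.3 CPM) lies between the MI rats, the groups do not overlap in any of the 18 genes shown.

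Ligands that call leukocytes rose with them. Of 29 CC and CXC chemokine ligands 26 were tested, of which 16 were higher and 5 lower (median 2.29). With at least 10 counts required in every rat, 8 were higher and 4 lower (median 0.67). Ccl2, which draws monocytes, was at 7.46, 7.64, 7.83 and 8.37 CPM in Sham and at 529, 387, 517 and 238 CPM in MI (log2 fold change 5.74 ± 0.27), and Ccl7 rose by 6.27 ± 0.50. MI 5 was the lowest MI rat for Ccl2, Ccl7 and Cxcl3. Cxcl12, the homing ligand made by resident stromal cells, fell from 321 to 415 CPM down to 64.8 to 138 CPM (-1.81 ± 0.21), and the interferon-gamma target Cxcl9 from 24.5 to 106 CPM down to 5.59 to 19.9 CPM (-2.61 ± 0.49).

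Of 32 cytokines and colony-stimulating factors 20 were tested, of which 12 rose and 3 fell (median 2.61). With at least 10 counts required in every rat, 5 rose and 3 fell (median 0.135). Il1b, the inflammasome product interleukin-1 beta, rose from 1.83 to 3.77 CPM up to 32.6 to 65.6 CPM (4.17 ± 0.30). Its natural antagonist Il1rn rose in the same hearts, from 2.67, 3.39, 2.87 and 6 CPM in Sham to 495, 220, 405 and 246 CPM in MI (6.51 ± 0.38). Il6 was listed at 0 in 3 Sham rats and at 0.274 CPM in the other, and was at 5.74, 9.09, 9.35 and 1.25 CPM in MI. Il18 rose by 3.61 ± 0.32, and Il15, Ctf1 and Il34 were the 3 that fell.

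Of 28 NF-kappaB response genes 23 rose and 1 fell (median 0.90). Bcl2a1, a survival gene of leukocytes, rose from 4.24 to 8.16 CPM up to 43.4 to 99.7 CPM (3.57 ± 0.30), Nfkbiz by 2.29 ± 0.15 and Ptgs2, the inducible cyclooxygenase, by 3.39 ± 0.39. Nfkbia, the classical feedback inhibitor, rose by only 0.52 ± 0.13, and Sod2, which is both a target of the pathway and a mitochondrial enzyme, fell by 0.46 ± 0.15 (adjusted p = 0.0229), a call lost without Sham 3 (-0.454, adjusted p = 0.0501) and when scaled by total counts alone (-0.028). With the treated rats in the fit, 14 of the 28 genes were called higher and Nfkbia was not called (0.383, adjusted p = 0.169). The promoter core GGGANTTCC lay in 5 of the 22 promoters of this list, 4 of them of genes that rose, and in 2.26% of all promoters.

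The interleukin-6 and STAT3 list had 15 of 22 genes higher and 5 lower (median 1.31). Socs3, the feedback inhibitor of that receptor, was at 8.82, 6.79, 5.32 and 6.97 CPM in Sham and at 66, 69.3, 61.5 and 53.2 CPM in MI (3.16 ± 0.16). Cish, the feedback inhibitor tied to STAT5, fell in the same hearts from 51.4 to 67.1 CPM down to 7.82 to 17 CPM (-2.40 ± 0.24). Stat3 itself rose by 0.36 ± 0.10 (adjusted p = 0.00894). That call was lost without MI 3 (0.279) and with the treated rats in the fit (0.222, adjusted p = 0.0778). Toll-like receptor and inflammasome genes were higher in 19 of 25 cases and lower in 1 (median 1.88), with Tlr2, a receptor for bacterial and cell debris ligands, going from 8.26 to 16.7 CPM up to 114 to 173 CPM (3.84 ± 0.26).

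Interferon-stimulated genes went the other way. By edgeR 14 of 30 were lower and none was called higher (median -1.095), DESeq2 and limma-voom also called none higher, and scaling by total counts alone called 1 higher. Their levels varied widely within both groups, with a summed 6000, 1520, 5965 and 8295 CPM in Sham and 1311, 2401, 3918 and 1606 CPM in MI. Mx2, an antiviral dynamin-like protein, was at 536, 68.3, 568 and 785 CPM in Sham and at 12.7, 81.4, 121 and 21.4 CPM in MI (log2 fold change -3.05 ± 0.83, adjusted p = 0.00846). Sham 2 stood apart from the other Sham rats in Mx2, in Ddx58, a sensor of viral RNA, and in Gbp5. Gbp5, a guanylate-binding protein, nevertheless separated the groups, at 112, 24, 113 and 148 CPM in Sham and 9.25, 12.4, 19.8 and 10.7 CPM in MI (-2.93 ± 0.49, adjusted p = 0.000446). Left out 1 at a time, the rats gave 9 to 21 genes called lower, with 21 without Sham 2 or without MI 4 and 9 without Sham 5.

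The Gbp5 promoter, shown for this list, holds a run spelled TTTCNNTTTC, the core bound by interferon regulatory and STAT factors, here in capitals in the 200 bases before the start. This core lay in 15 of the 21 promoters given for the list, against 2.93% of all promoters. Of those 15 genes 7 were called lower and none higher.

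Gbp5, chr2:233910799-233910998, plus strand: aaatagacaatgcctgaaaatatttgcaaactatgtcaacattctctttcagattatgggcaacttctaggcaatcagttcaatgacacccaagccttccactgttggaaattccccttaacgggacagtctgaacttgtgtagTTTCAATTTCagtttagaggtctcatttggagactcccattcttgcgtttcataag

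Complement and clotting genes were mixed. In the complement list 8 of 21 genes rose and 6 fell (median 0.24, or 0.122 without MI 4). C5ar1, the leukocyte receptor for the fragment that attracts neutrophils, rose from 14.8 to 19 CPM up to 181 to 291 CPM (3.90 ± 0.17), as did C3ar1. The secreted early and late components C1r, C1s, C4a and C7 fell, C7 from 419 to 567 CPM down to 65.4 to 130 CPM (-2.35 ± 0.21), and so did Masp1, a protease of the lectin pathway (-3.01 ± 0.35). In the coagulation and fibrinolysis list 11 of 24 rose and 6 fell (median -0.11, positive when scaled by total counts and without Sham 5). Its mean went the other way from its median, with scores of 0.60 to 0.70 in MI and -0.71 to -0.47 in Sham. Plaur, the receptor that holds urokinase on the cell surface, rose from 4.45 to 6.97 CPM up to 62.6 to 98.8 CPM (3.85 ± 0.19), and Thbd, F8, Tfpi and Pros1, which act at the resting vessel wall or in plasma, fell.

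The AP-1 core TGANTCA lay in 7 of the 16 promoters given for the coagulation list, 6 of genes that rose and 1 of a gene that fell, against 5.07% of all promoters. The Plaur promoter is shown as an example, with the core in capitals 83 bases before the start.

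Plaur, chr1:89181113-89181362, plus strand: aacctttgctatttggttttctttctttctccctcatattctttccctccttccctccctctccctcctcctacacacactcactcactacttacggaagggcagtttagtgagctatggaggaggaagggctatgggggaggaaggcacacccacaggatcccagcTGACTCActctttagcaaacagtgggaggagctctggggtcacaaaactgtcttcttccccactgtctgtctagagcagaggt

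Leukocyte adhesion genes were higher in 16 of 22 cases and lower in 4 (median 1.61). Selp, the P-selectin that catches leukocytes on activated vessel wall and platelets, was at 0.752, 0.653, 0.359 and 0.907 CPM in Sham and at 27, 28.8, 28.6 and 30.1 CPM in MI (5.40 ± 0.22). The 4 that fell, Cd34, Jam2, Jam3 and Icam2, are known from resting endothelium.

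Immediate-early genes were higher at 1 day, 17 of 25 higher and 2 lower (median 1.03). Fos rose from 1.15 to 6.5 CPM up to 29.1 to 44.1 CPM (3.60 ± 0.44), Egr2 by 4.23 ± 0.38 and Junb by 2.42 ± 0.22. Dusp1, the phosphatase that switches off MAP kinases, and Klf4, a factor of quiescent vessel cells, fell (-0.82 ± 0.22 and -0.90 ± 0.11). The call of Dusp1 was lost when scaled by total counts alone, with the replicate block (-0.747, adjusted p = 0.0866) and when tested against a 1.5-fold change (adjusted p = 0.119).

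Hypoxia-inducible genes split. Of 33 genes 13 rose and 10 fell, and the median of 0.10 changed sign when MI 3, MI 4 or Sham 1 was left out, and when at least 10 counts were required in every rat (10 higher and 10 lower). Angptl4, an inhibitor of lipoprotein lipase, was at 1.3, 7.7, 1.36 and 2.51 CPM in Sham and at 113, 157, 93 and 93.6 CPM in MI (log2 fold change 5.13 ± 0.52), and Ndrg1 rose by 2.69 ± 0.19. Vegfa, the vessel growth factor, fell from 281, 293, 251 and 232 CPM to 71.3, 221, 140 and 80.2 CPM (-1.04 ± 0.32, adjusted p = 0.0152), with MI 3 close to the Sham range. Pdk1, which closes the entry of pyruvate to mitochondria, fell by 2.05 ± 0.21 and Bnip3 by 1.03 ± 0.32. The calls of Vegfa and Bnip3 were lost when scaled by total counts alone. Scores of this list were 0.70 in MI 3 and 0.47 in MI 4, and -0.04 and 0.03 in MI 1 and MI 5, all above the 4 Sham rats at -0.42 to -0.24.

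Protein-folding stress in the endoplasmic reticulum showed a rise across most of its list, with 24 of 32 genes higher and 2 lower (median 1.15). When each rat was left out in turn, 23 to 24 were higher and 2 to 5 lower. Hspa5, the chaperone BiP, was at 350, 368, 353 and 390 CPM in Sham and at 1013, 1124, 1654 and 879 CPM in MI (log2 fold change 1.68 ± 0.18, adjusted p = 2.78e-05). Creld2, a secreted folding protein, rose from 11 to 15.1 CPM up to 58.1 to 134 CPM (2.68 ± 0.26), and Asns, asparagine synthetase, a target of the ATF4 branch, from 1.64 to 4.12 CPM up to 16.9 to 28.7 CPM (3.01 ± 0.30). MI 4 was the highest rat for Hspa5 and Creld2. Herpud1, a membrane protein of the degradation pathway, fell from 178 to 200 CPM down to 66.7 to 91.1 CPM (-1.31 ± 0.11), beside Vldlr.

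Promoters of this list hold a long element, spelled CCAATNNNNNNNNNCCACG, which includes a CCAAT box and is known as the endoplasmic reticulum stress element. In this list, where 24 of 32 genes rose, it was found in 7 of the 27 promoters given, against 0.149% of all promoters. The 7 were the promoters of Hspa5, Hsp90b1, Calr, Canx, Xbp1, Creld2 and Dnajc3, all of which rose. Those of Hspa5 and Creld2 are shown with the element in capitals. In Hspa5 it begins 43 bases before the start, and in Creld2 145 bases before it, on the opposite strand.

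Hspa5, chr3:38452816-38453015, plus strand: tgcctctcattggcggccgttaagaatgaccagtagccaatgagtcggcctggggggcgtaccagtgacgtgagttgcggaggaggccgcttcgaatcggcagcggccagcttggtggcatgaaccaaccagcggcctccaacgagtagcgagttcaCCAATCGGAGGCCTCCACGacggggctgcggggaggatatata
Creld2, chr7:121789184-121789383, plus strand: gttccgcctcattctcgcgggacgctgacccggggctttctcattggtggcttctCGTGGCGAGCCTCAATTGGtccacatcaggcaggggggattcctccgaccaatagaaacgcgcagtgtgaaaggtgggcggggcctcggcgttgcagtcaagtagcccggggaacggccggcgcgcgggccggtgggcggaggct

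Of 27 antioxidant genes 14 rose and 11 fell (median 0.51). Hmox1, the heme-degrading enzyme, was at 21, 23.7, 20.1 and 34.7 CPM in Sham and at 615, 530, 589 and 350 CPM in MI (4.39 ± 0.25), and Mt2A, a metallothionein, rose from 1.15 to 3.2 CPM up to 75.9 to 117 CPM (5.42 ± 0.29). Sod3, the extracellular superoxide dismutase, fell by 2.98 ± 0.11, and the mitochondrial Prdx3 and peroxisomal Cat fell as well. The p53 list had 13 of 24 higher and 3 lower (median 0.71), with Cdkn1a, the p21 cell cycle inhibitor, higher by 1.69 ± 0.22 and Ccng1 lower by 1.85 ± 0.16 on the log2 scale. Ripk3, the kinase of necroptosis, rose from 5.89 to 8.86 CPM up to 55.5 to 93.3 CPM (3.32 ± 0.21).

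Within the autophagy and lysosome list 17 of 30 genes rose and 7 fell (median 0.54). Those that rose included the cathepsins of the lysosome, with Ctsb at 486, 502, 470 and 605 CPM in Sham and 3426, 2190, 3364 and 2350 CPM in MI (2.46 ± 0.18) and Ctsz higher by 3.77 ± 0.26. Those that fell included Pink1, Ulk1 and the LC3 genes Map1lc3a and Map1lc3b of the autophagosome. Proteasome subunits rose by little, 18 of 33 higher and 1 lower (median 0.39), and 32 of 33 were called higher when scaled by total counts alone.

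Synthesis of sterols, serine and nucleotides rose. Of 19 cholesterol genes 16 were higher and 1 lower (median 1.07). Sqle, squalene epoxidase, was at 8.28, 10.8, 11 and 7.88 CPM in Sham and at 49.1, 40.9, 44.8 and 42 CPM in MI (2.22 ± 0.14). Fdft1, the enzyme just before it in the pathway, fell by 0.81 ± 0.16, a call lost with total-count scaling. Of 24 serine, one-carbon and nucleotide genes 20 rose and 1 fell (median 1.098), with Psat1, a serine synthesis enzyme, higher by 2.71 ± 0.22.

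The machinery that builds ribosomes rose almost without exception. Of 40 genes of ribosome biogenesis and RNA polymerase I 37 were higher and none lower (median 1.39). Ncl, nucleolin, was at 218, 208, 217 and 222 CPM in Sham and at 737, 606, 650 and 625 CPM in MI (1.598 ± 0.10, adjusted p = 8.95e-07), and Rrp12 rose by 2.10 ± 0.18. Cytosolic ribosomal proteins followed, 29 of 34 higher and none lower (median 0.70), with Rpl3 higher by 1.73 ± 0.11. Of 19 aminoacyl-tRNA synthetases 16 rose and 1 fell (median 0.75). Eif4a1, the helicase that opens mRNA for initiation, rose by 1.86 ± 0.11, and Ran, the small GTPase of nuclear transport, by 1.65 ± 0.12, within a list of importins, exportins and nuclear pore genes of which 27 of 29 rose and 1 fell (median 0.74). Myc, a factor known to drive these genes, was at 6.5, 6.46, 6.75 and 6.21 CPM in Sham and at 118, 112, 99.9 and 108 CPM in MI (4.08 ± 0.10).

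The letters CACGTG, the E-box bound by MYC and its relatives, lay in 15 of the 38 promoters given for the ribosome biogenesis list (39.5%). The share over all promoters was 9.17%. All 15 were of genes that rose, in a list of which 37 of 40 genes rose. Over the whole comparison the E-box lay in 10.8% of promoters of genes that rose and 7.34% of those of genes that fell. Those shares were 5.85 and 5.14% for the AP-1 core, and 2.42 and 2.03% for GGGANTTCC. For the endoplasmic reticulum stress element they were 0.275 and 0.0667%, and for the E2F core TTTGGCGC 0.962 and 0.5%. The MEF2 core (2.83 and 3.47%) and the interferon core (2.67 and 2.97%) were rarer in genes that rose. Other motifs were also searched in each list and are not reported here. The stretches before Mybbp1a, a nucleolar protein, and Dkc1, the pseudouridine synthase dyskerin, are shown with the E-box in capitals, 156 and 184 bases before the start.

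Mybbp1a, chr10:57555258-57555457, plus strand: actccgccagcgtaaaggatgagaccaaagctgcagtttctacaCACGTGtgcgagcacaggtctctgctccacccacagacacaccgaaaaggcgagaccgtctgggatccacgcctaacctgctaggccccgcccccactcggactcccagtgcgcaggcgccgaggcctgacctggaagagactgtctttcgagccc
Dkc1, chrX:157751451-157751650, plus strand: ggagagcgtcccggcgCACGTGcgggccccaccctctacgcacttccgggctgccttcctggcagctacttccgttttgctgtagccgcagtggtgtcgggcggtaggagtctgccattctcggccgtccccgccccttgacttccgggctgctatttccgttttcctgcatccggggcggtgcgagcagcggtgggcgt

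Genes of DNA replication and mitosis rose in 33 of 37 cases and fell in 2 (median 1.58). Mcm3, a subunit of the replicative helicase, was at 12.7, 18.1, 17.5 and 20.1 CPM in Sham and at 91.2, 72.1, 82.2 and 81.1 CPM in MI (2.25 ± 0.15), Ccna2 rose by 2.44 ± 0.16 and the proliferation marker Mki67 by 1.23 ± 0.21. The 2 that fell, Ccnd2 (-1.03 ± 0.20) and Ccnd3, encode D cyclins. The E2F core TTTGGCGC lay in 5 of the 26 promoters given for this list, 4 of them of genes that rose, against 0.887% of all promoters. Whether cells divided, and which, cannot be read from transcript levels of whole tissue.

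Fibroblast transcripts were lower in the ligated ventricle. Of 15 fibroblast markers 12 fell and none rose (median -1.66). Islr, a secreted protein of mesenchymal cells, was at 55.1, 51.6, 57.8 and 59.3 CPM in Sham and at 2.08, 3.33, 2.35 and 2.28 CPM in MI (-4.48 ± 0.16, adjusted p = 2.06e-07), and Dpt, dermatopontin, fell by 2.32 ± 0.15. Of 21 collagen chains 12 fell and 5 rose (median -0.66), a split of 7 and 7 when scaled by total counts alone. Col3a1, the main chain of fine fibrils, was at 5344, 5526, 4376 and 5818 CPM in Sham and at 1171, 1325, 1169 and 1205 CPM in MI (-2.11 ± 0.13). Col12a1, a fibril-associated chain of tissue under tension, rose from 5.37 to 9.33 CPM up to 59.7 to 161 CPM (3.99 ± 0.31), while its close relative Col14a1 fell from 146 to 186 CPM down to 8.6 to 20 CPM (-3.42 ± 0.24).

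Matricellular and provisional matrix genes moved the opposite way to the collagens, 16 of 25 higher and 5 lower (median 2.61). Tnc, tenascin-C, was at 8.48, 11.2, 5.53 and 8.02 CPM in Sham and at 140, 275, 121 and 246 CPM in MI (4.56 ± 0.33), with the higher values in MI 3 and MI 5. Postn, the periostin gene of activated fibroblasts, rose less, from 87 to 138 CPM up to 257 to 376 CPM (1.502 ± 0.17). Of 26 metalloproteinases and inhibitors 21 were tested, of which 13 rose and 7 fell (median 1.56). With at least 10 counts required in every rat, 7 rose and 7 fell (median -0.193). Timp1, the inducible inhibitor, rose from 12.7 to 18.1 CPM up to 397 to 631 CPM (4.95 ± 0.20), whereas Timp4, the inhibitor typical of the heart, fell by 2.59 ± 0.39. Cytoskeleton and motility genes were higher in 31 of 33 cases (median 1.71), among them Cotl1 (3.77 ± 0.20) and Coro1a (3.24 ± 0.18), both abundant in leukocytes. Myl9, the light chain of smooth muscle myosin, was the 1 that fell (-2.11 ± 0.19).

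Vessel cell markers had medians nearer to 0. Of 15 endothelial markers 7 fell and 1 rose (median -0.59), and total-count scaling left 2 lower and 3 higher. Cdh5, the cadherin of endothelial junctions, fell from 499 to 616 CPM down to 180 to 317 CPM (-1.14 ± 0.16). Plvap, a protein of fenestrated and leaky vessels, was the 1 that rose, from 9.3, 6.79, 2.16 and 5.51 CPM to 42.2, 59.4, 48.2 and 56 CPM (3.11 ± 0.34). Of 13 mural cell markers 7 fell and 1 rose (median -0.31, positive under total-count scaling, -0.47 without MI 3 and -0.528 without MI 5). Rgs5, the pericyte marker, fell by 2.38 ± 0.23, and Acta2, the smooth muscle actin, was at 69.1 to 86.9 CPM in Sham and 74.9 to 194 CPM in MI and was not called (0.59 ± 0.27, adjusted p = 0.0799).

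Signalling lists were mixed. Of 31 TGF-beta and BMP genes 15 rose and 10 fell (median 0.50, or 0.224 without MI 1, 0.332 without Sham 2, 0.279 without Sham 5 and 0.212 with at least 10 counts required in every rat). Inhbb, the activin beta B chain, rose from 3 to 5.44 CPM up to 31.8 to 90.6 CPM (3.74 ± 0.36), and so did Fst, follistatin, which binds activins (3.57 ± 0.20). Bmp6 fell by 2.17 ± 0.26. Among 24 Wnt ligands, receptors and inhibitors 12 fell and 3 rose (median -0.89), with the secreted inhibitor Dkk3 lower by 2.57 ± 0.28 and the receptor Fzd2 higher by 0.78 ± 0.14 on the log2 scale.

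Clock genes differed strongly between the groups, with 11 of 20 lower and 4 higher (median -0.94). Arntl, the positive arm known as BMAL1, was at 1.92, 1.83, 3.02 and 3.77 CPM in Sham and at 21.9, 18.1, 27.1 and 23.8 CPM in MI (log2 fold change 3.11 ± 0.25). Its output and repressor genes lay on the other side. Dbp was at 430, 350, 154 and 346 CPM in Sham and at 22.8, 35.8, 26.3 and 20 CPM in MI (-3.61 ± 0.32), Nr1d1 fell by 2.88 ± 0.21 and Per3 by 3.13 ± 0.20. The hour of day at which each heart was taken is not given in the sources used here, and its part in this difference was not tested.

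Among the regulators of transcription, 906 genes of listed factor families were tested, of which 218 rose and 268 fell, a smaller share called (53.6%) than the 65.1% of all protein-coding genes. The families differed in direction. Of 48 bZIP factors, which include FOS, JUN, C/EBP, ATF and MAF proteins, 30 rose and 6 fell. Of 16 thyroid hormone-like nuclear receptors 2 rose and 10 fell, and of 365 zinc finger factors of the C2H2 type 53 rose and 113 fell. Inflammatory and myeloid factors rose in 28 of 36 cases and fell in 3 (median 1.39). Cebpa, a factor that sets myeloid identity, was at 5.75, 6.33, 5.89 and 11.3 CPM in Sham and at 193, 150, 205 and 153 CPM in MI (4.58 ± 0.25), Runx1 rose by 3.36 ± 0.17 and Runx2 by 4.07 ± 0.27. In the list of stress and growth transcription factors 21 of 45 rose and 12 fell (median 0.29, or 0.174 without MI 5). Snai1 rose by 2.08 ± 0.13, while Mycn, the relative of Myc, fell from 14 to 21 CPM down to 0.396 to 2.09 CPM (-3.83 ± 0.42).

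The 4 MI rats were less alike than the 4 Sham rats, with a median SD over genes of 0.26 against 0.19 on the log2 CPM scale. MI 1 had the lowest cardiomyocyte score (-2.02) and the lowest oxidative phosphorylation score (-1.37), and MI 3 the highest cardiomyocyte score of the group (-0.86). MI 4 had the highest neutrophil score (2.502) and the highest monocyte and macrophage score (2.20). Correlations of log2 CPM over genes, which are not independent replicates, were 0.954 to 0.976 between rats of the same group and 0.772 to 0.836 between rats of different groups. Infarct size and the share of border tissue in each sample were not tested.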

How the data were processed

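RNA-seq of the left ventricle was used from 4 MI and 4 Sham rats, 1 sample per rat as labelled. The values the authors deposited are raw read counts, 1 per gene and rat, and per the labels the table was made with HISAT2 and featureCounts on build rn6, with versions, annotation release and strand setting not given in the sources used here. Without a stated strand, reads of overlapping or antisense genes, and of near-identical copies such as the actin, tubulin, hemoglobin and ribosomal protein genes, cannot be told apart. No normalization had been applied, and every sample column used holds whole numbers.

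Analysis was run in edgeR 4.0.16 (R 4.3.3). The filter filterByExpr, with a minimum count of 10, left 14601 of 34599 genes, of which 13371 were protein-coding. After TMM scaling, the 8 rats were fitted by quasi-likelihood with a mean for each group, and p-values of the genes tested were adjusted together by Benjamini-Hochberg, with calls made at 0.05. The 4 columns of treated rats entered only the alternative fit with all 12 rats. CPM are counts divided by the scaled library size, and scores use log2 CPM with a prior count of 2. Each ± value is a standard error worked back as the absolute log2 fold change over the square root of the test's F statistic. On counts simulated with 200 changed genes among these 14601, the test recovered 46.7% of 2-fold changes and 9.0% of 1.5-fold changes. Of its calls there, 6.7% were false. Far more genes were called in the real comparison, so these rates may not hold for it. A floor of 3 counts and the 95% exact intervals of count ratios cover counting error only, since reads carried no molecular identifiers. Libraries held 14898054 to 17136958 counts.

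Genes and lists were chosen with earlier results of these data known, and list counts are descriptions. Some genes of the lists are counted but not reported here by name. Of 1717 listed symbols 1661 matched the table and 1555 were tested. Genes were named by rule: from the called protein-coding genes that have a symbol, average 5 CPM or more and do not overlap between groups, the 15 largest changes each way (not all are discussed), a set of anchor genes, and in each list up to 3 of the largest called changes, the largest in the other direction and the called gene of highest CPM. Isoform partners and the genes whose promoters are shown were picked after their values had been seen, as were other list members named without a value. Promoters were taken from RefSeq build GRCr8 for 10037 of the 13371 genes, matched by symbol or identifier. Alternatives were DESeq2 1.42.0, limma-voom (limma 3.58.1), other scalings and filters, a fit with all 12 rats of the series and 3 group means, a test against a 1.5-fold change, a replicate block and leaving out each rat.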

Additional observations from a re-analysis of the deposited data

Results flagged for a closer look

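In groups of 4 rats, 28 of 494 sets of values held a rat so far from the other 3 that its gap passed Dixon's critical value for 4 samples, and chance alone gives about 1 in 20. Sham 2 was low for Mx2 (68.3 CPM against 536 to 785), Gbp5 (24.0 against 112 to 148), Ddx58 (13.3 against 71.2 to 97.0) and Idh2 (2061 against 2227 to 2257), high for Spp1 (5.87 against 3.45 to 3.56) and Pgam2 (689 against 564 to 584), and had the lowest matricellular score (-1.14). The interferon genes are the ones that stood together in this rat.

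Sham 5 was high for Ky (70.4 CPM), Scn4b (185), Actn2 (1951), Il18 (3.63 against 1.63 to 1.80), Tlr2 (16.7 against 8.26 to 8.94), Cebpa (11.3 against 5.75 to 6.33) and C5ar1 (19.0 against 14.8 to 15.3). It also had the highest resident macrophage score of the Sham rats (-0.17 against -0.74 to -0.66) and the highest coagulation score (-0.47). For the genes and scores that rose, this rat still lay below every MI rat.

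Sham 1 was apart for Slc2a4 (393 CPM), Klf15 (75.9), Ccna2 (4.58, low) and Il6 (0.274 CPM, with the other 3 at 0). Sham 3 was apart for Tecrl (126 CPM), Herpud1 (178, low), Runx2 (0.431, low), the hypoxia score (-0.42, low) and the clock score (0.45, low). MI 1 was high for Mmp12 (160 CPM against 79.7 to 83.9) and Myl9 (42.4) and low for the tricarboxylic acid cycle score (-1.23 against -0.95 to -0.90).

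Genes outside the protein-coding class changed as well. Of 1230 such genes tested, 316 were higher and 374 lower. Small nucleolar RNAs, which guide the modification of ribosomal RNA, were higher in 18 of 29 cases and lower in none by edgeR, while unnamed loci were higher in 160 and lower in 249 of 700 cases.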

How the results depend on the processing

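No gene called in the comparison changed sides in any of the alternative fits. The 4702 genes higher and 3997 lower were 4217 to 4520 and 3760 to 4365 when each rat was left out in turn, and testing against a 1.5-fold change left 2788 and 2582. Scaling by total counts alone, which moved the median by 0.44, gave 6960 higher and 2546 lower, and the fit with all 12 rats, which moved it by -0.13, gave 4195 and 4651. The median of mural genes became 0.13 under total-count scaling, and that of dendritic and MHC class II genes 0.157. That of glycolysis became 0.43, or 0.15 without mitochondrial-genome genes in the totals, and lay between -0.144 (without MI 3) and 0.097 (without Sham 5) when a rat was left out, with 0.0 without MI 1 and 0.047 without MI 5. That of coagulation became 0.34, or 0.059 without mitochondrial-genome genes, and ranged from -0.165 (without Sham 3) to 0.134 (without Sham 5). That of hypoxia-inducible genes became -0.033 with all 12 rats and -0.069 with the replicate block, and ranged from -0.18 (without MI 4) to 0.204 (without MI 5), with -0.027 without MI 3 and -0.038 without Sham 1. Ldha, which was not called, ranged from -0.027 (without MI 3) to 0.216 (without MI 5), with -0.001 without MI 4. The cause of these changes was not tested. With at least 10 counts required in every rat, which tests fewer genes, the median of hypoxia-inducible genes became -0.078 and that of metalloproteinases and inhibitors -0.193. Of 3701 values of 186 single genes, 37 lost their call (in 13 genes) and 5 gained one. Of 870 list medians 145 moved without changing sign. Replicate numbers do not pair the rats, since same-numbered rats correlated at -0.08, 0.01 and -0.13. With the numbers as a replicate block 4211 genes were higher and 3565 lower. In that fit 26 of 30 interferon-stimulated genes were lower in place of 14, and 7 of 9 red blood cell genes in place of 4. Sham 2 and MI 4 have no rat of the same number in the other group, so the block takes them out of the group difference. The effect of blocking and that of losing these rats cannot be told apart there. With 4 rats a group and only 200 genes changed, the test recovered 46.7% of simulated 2-fold changes. Far more genes were called in the real comparison, so that rate may not hold for it. Small differences may have been missed.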
